A study of Mus musculus with 24 samples.

Results

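Serine tRNA fragments were followed in small RNA sequencing of CD4+ T cells from mice and of what those cells shed into the medium as extracellular vesicles (EVs). The members were all features whose name starts with tRNA-Ser- in the count files: 30 of 4408 features, and 30 of the 780 nuclear tRNA features named in that way. Serine tRNA genes listed under other names (n-TSaga9, n-TStga1 and Gm44456) were not members. They came from 17 serine tRNA genes with 4 anticodons: 6 genes with AGA, 1 with CGA, 7 with GCT and 3 with TGA. Each feature was 1 kind of fragment from 1 gene, and the kinds carry the authors' names: 16 features were 5FR_1, 5 were 3FR_1_down, 4 were 3FR_1_up, 3 were 3_half_up and 2 were 3FR_2. The 5 and the 3 are read here as the end of the tRNA that the fragment comes from. Neither the labels nor the files give the bases where each kind starts and stops.

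The T cells were taken from the spleen and lymph nodes of wild-type C57BL/6 mice, and the series set out to ask which tRNA fragments T cells export into EVs when they are activated. Resting cultures had 2 days of stimulation and 1 day of expansion, and were then left for 2 days in medium with interleukin-2. Stimulated cultures were kept for 3 days on plates coated with antibodies, anti-CD3 at 2 µg/ml with anti-CD28 at 5 µg/ml. DMSO cultures were stimulated for 3 days with the vehicle DMSO, and GW4869 cultures were stimulated for 3 days with GW4869, an inhibitor of neutral sphingomyelinase, an enzyme with a part in EV release. Cells and EVs were sequenced from each kind of culture, in 3 libraries per group and 24 in all. All cultures had thus been stimulated at some time, and the resting cultures differ from the others in earlier stimulation and culture time as well as in state. Whether the 3 libraries within a group are from different mice or cultures is not stated by the labels, so p-values measure only the spread between these libraries, which may be technical.

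Serine tRNAs, like those of leucine and selenocysteine, have a long variable arm between the anticodon stem and the T arm. The AGA, CGA and TGA anticodons read the serine codons that start with UC, and GCT reads the separate pair of serine codons that start with AG. Fragments of tRNAs are among the small RNA found in EVs. Cleavage of a tRNA, often in or near the anticodon loop after stress or activation, leaves 5′ and 3′ fragments of different stability. A count of a fragment is therefore not a count of the tRNA it came from.

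The gene sequences are shown because serine tRNA genes are near copies of each other, which bears on what a count of 1 gene can mean. Of 22 serine tRNA genes of RefSeq, 4 lay inside a transcript whose sequence was at hand (GENCODE M21, coordinates of RefSeq on GRCm38, counted from 1). The capitals mark the anticodon, bases 34 to 36 of 82. The authors' gene names are not paired with those of RefSeq in the files.

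n-TSaga9 (AGA, chr4:10874064-10874145, plus strand): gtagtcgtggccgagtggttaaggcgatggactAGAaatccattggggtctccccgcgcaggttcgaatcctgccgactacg
n-TStga1 (TGA, chr13:23518146-23518227, plus strand): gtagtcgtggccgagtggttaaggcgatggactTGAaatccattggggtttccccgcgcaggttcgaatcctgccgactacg
n-TStga2 (TGA, chr13:21924935-21925016, minus strand): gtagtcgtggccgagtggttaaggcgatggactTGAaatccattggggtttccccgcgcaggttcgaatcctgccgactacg
n-TSgct5 (GCT, chr13:22050686-22050767, minus strand, inside an exon of Gm48356): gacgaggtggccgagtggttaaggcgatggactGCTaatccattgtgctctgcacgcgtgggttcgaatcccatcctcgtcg

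The pair of TGA genes had the same 82 bases. The AGA gene differed from them at 2 positions only, A34T and C50T (base of the AGA gene, position from 1 at the 5′ end, base of the TGA genes), so all bases before the anticodon were shared. The GCT gene was further away, with 75.6% of positions identical to the AGA gene and 74.4% to the TGA genes, and its first difference was at base 2. Before the anticodon, however, it differed only within the first few bases and was then identical to the AGA and TGA genes.

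The counts of single genes were compared in the same way. Summed over the 24 libraries, the 5 AGA genes with a 5FR_1 feature had 1190 to 1250 counts each, and the 7 GCT genes had 2234 to 2513. Within a library, the variance of the counts over the AGA genes was a median of 0.80 times their mean, and over the GCT genes 1.01 times; counting error alone gives a variance equal to the mean. Adding the TGA-2 genes to the AGA genes left it at 0.76 over 7 genes. For 3FR_1_down, the AGA-1-1 gene and both TGA-2 genes had a ratio of 0.89. How the authors counted reads that match several genes is not known here, so the AGA and TGA-2 values below are not taken as separate measurements, and the genes of an anticodon are not replicates of each other. TGA-1-1 5FR_1 had 1.64 times the mean count of the TGA-2 genes in stimulated cells and 0.667 times in DMSO cells, from 55 against 33.5 and 19 against 28.5 counts over 3 libraries. Within each anticodon and kind with several genes, the gene with the highest mean CPM (counts per 1e6 counts) was as follows. It was TGA-2-1 for TGA 3FR_1_down at 53.5, GCT-4-3 for GCT 5FR_1 at 48.6 and TGA-1-1 for TGA 5FR_1 at 28.9. For AGA 5FR_1 it was AGA-2-5 at 24.9, for TGA 3FR_1_up TGA-2-1 at 24.1 and for TGA 3_half_up TGA-2-2 at 12.6.

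Counts were therefore summed over the genes of 1 anticodon and kind, which gave 15 serine fragments, and all other nuclear tRNA features were summed in the same way to a table of 3798 rows. Levels are given as CPM after scaling each library by TMM, a method that assumes most features do not differ. They are not divided by length. Differences are log2 folds with their standard error, tested with the quasi-likelihood test of edgeR and adjusted by Benjamini-Hochberg over all rows, and a fragment was called at an adjusted p under 0.05.

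The libraries held 1290918 to 3231626 counts, of which 1005 to 5738 were serine tRNA counts, so the smaller fragments rest on few reads: the lowest count in any file was 4. Markers of the labelled cell type were present: Mir142, of blood cells, had 208800 to 243200 CPM in resting cells and 66150 to 90670 in stimulated cells, and Mir155, which activated T cells make more of, had 3485 to 4086 and 11330 to 12720. Of 15 markers of other cells (erythroid, myeloid, endothelial, liver, epithelial, muscle and stromal), 3 were listed, and their summed level was at most 286.9 CPM in any library.

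Counts of the member features, here called serine tRNA counts, were 0.077% of all counts in resting cells and 0.162% in resting EVs (means, SD 0.00546 and 0.0166, n = 3). They were 0.0701% and 0.147% in stimulated cells and EVs, 0.0643% and 0.145% with DMSO, and 0.0779% and 0.105% with GW4869. In resting, stimulated and DMSO cultures every EV library was above every cell library. With GW4869 the cells lay between 0.0689% and 0.0866% and the EVs between 0.0857% and 0.12%, so that these groups overlapped.

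What the serine counts were made of differed between cells and EVs in every culture. In resting cells 54.2% of the serine counts were 3FR_2 and 29.3% were 5FR_1, whereas in resting EVs 8.71% were 3FR_2 and 68.5% were 5FR_1. In stimulated cells 3FR_2 was 50.5% and in stimulated EVs 3.01%. DMSO cells and EVs had 43.1% and 2.35%, and GW4869 cells and EVs had 35.8% and 2.76%. In the bars of make-up by library, no EV library reached the lowest 3FR_2 share of its cells and no cell library reached the lowest 5FR_1 share of its EVs. These shares are within a library and do not depend on the scaling between libraries.

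**Figure D1:**
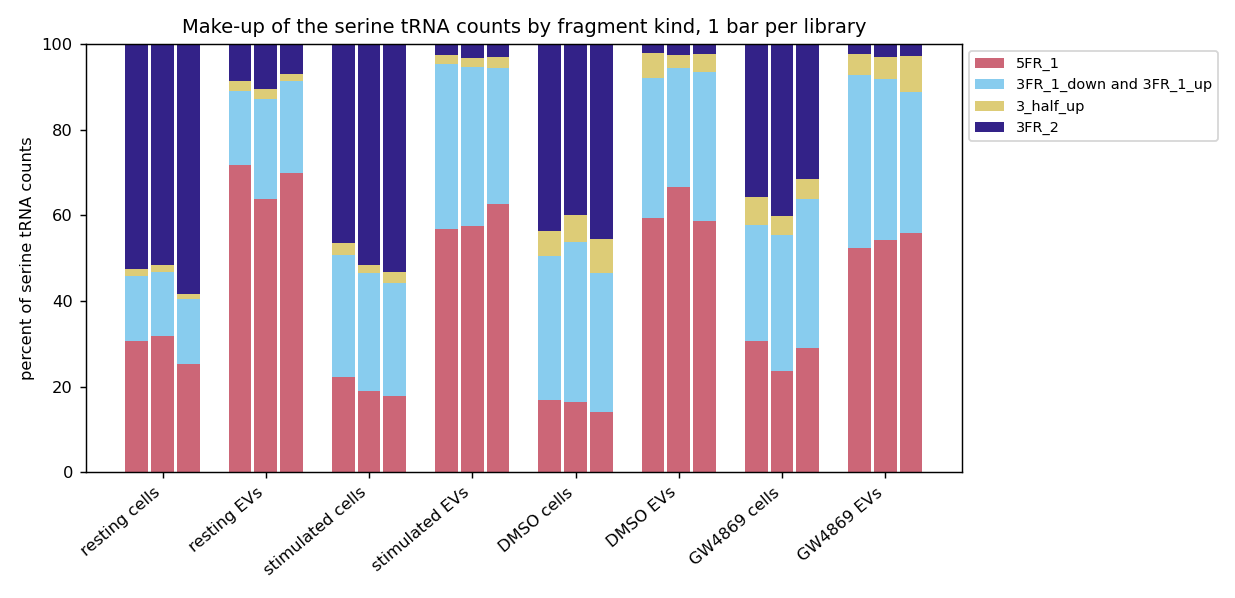
Percent of the serine tRNA counts of each library (1 bar per library, 3 per group) that were 5FR_1, 3FR_1 (down and up together), 3_half_up and 3FR_2. The 3FR_2 share is 31.6% to 58.5% in cell libraries and 2.12% to 10.5% in EV libraries.

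The difference was largest within the AGA anticodon, whose only 3FR_2 feature was AGA-2-3. That gene has no 5FR_1 feature, so the ratio below sets different AGA genes against each other. The log2 ratio of AGA 5FR_1 to AGA 3FR_2 counts was −2.59 ± 0.11 in resting cells and 1.08 ± 0.14 in resting EVs (SD, n = 3). It was −3.85 ± 0.25 and 2.72 ± 0.11 in stimulated cells and EVs, −3.56 ± 0.14 and 3.11 ± 0.14 with DMSO, and −3.23 ± 0.37 and 2.76 ± 0.45 with GW4869. In all 4 kinds of culture the cell libraries were below 0 and the EV libraries above it. CGA-2-1 has both kinds, and its log2 ratio of 5FR_1 to 3FR_2 was −2.12 ± 0.80 in resting cells and 0.91 ± 0.45 in resting EVs. Its cell libraries were also below 0 and its EV libraries above it in each kind of culture. AGA 5FR_1, summed over 5 genes, was also set against AGA 3FR_1_down, which came from 1 gene, AGA-1-1. The summed 5FR_1 was the more abundant in resting cells (log2 ratio 1.87 ± 0.30). It was the less abundant in stimulated cells (−0.57 ± 0.19), DMSO cells (−0.87 ± 0.21) and GW4869 cells (−0.58 ± 0.51). In EVs that ratio was above 0 in each kind of culture (2.11 ± 0.45 resting, 1.08 ± 0.17 stimulated, 1.58 ± 0.54 with DMSO and 1.11 ± 0.34 with GW4869). Within AGA-1-1 alone, 5FR_1 had fewer counts than 3FR_1_down in every group. The counts over 3 libraries were 82 against 113 in resting cells and 381 against 449 in resting EVs. The sign of the summed ratio thus depends on how many genes were summed.

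By anticodon, AGA held 62.7% of serine counts in resting cells and 29.4% in resting EVs, and GCT held 17.3% and 43.3%. Much of the AGA count in cells was the single feature AGA-2-3 3FR_2, with 2466 counts over the resting cell libraries and 866 over the resting EV libraries. The other AGA fragments (5FR_1, 3FR_1_down, 3FR_1_up and 3_half_up) were higher in resting EVs, so the lower AGA share is not a trait of every AGA fragment. In stimulated cells and EVs AGA held 56.6% and 23.4% and GCT 16.9% and 40.2%. CGA, from a single gene, held between 5.18% and 9.71% in every library.

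The first comparison asked which serine fragments EVs held more or less of than the cells that released them. In resting cultures all 15 fragments were called, 13 higher in EVs and 2 lower, where 16.2% of all rows were called higher and 12.7% lower. AGA and TGA fragments of the same kind may hold the same reads. Counts of fragments, here and below, are therefore not counts of separate measurements. All 4 5FR_1 fragments, all 4 3FR_1_down, all 3 3FR_1_up and both 3_half_up were higher, and both 3FR_2 were lower. The serine median was 1.53 on the log2 scale and that of all rows 0.06. A higher CPM is a higher share of the reads: more of the fragment and less of other RNA in an EV cannot be told apart, nor can fewer cells of a type and less RNA per cell.

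GCT 5FR_1, summed over 7 genes, had the highest CPM of the serine fragments in EVs. Each of the 7 alone had fewer counts over the resting EV libraries (677 to 784) than the single feature AGA-2-3 3FR_2 (866). The summed GCT 5FR_1 level was 219, 229 and 181 CPM in resting cells and 1097, 729.6 and 1457 CPM in resting EVs. Every EV library was above every cell library, and the third EV library was the highest of all. The log2 fold was 2.38 (SE 0.24, adjusted p = 1.28e-08), or 5.22-fold.

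AGA 5FR_1 had 113, 117.5 and 128.5 CPM in resting cells and 458, 398.5 and 366 CPM in resting EVs, a log2 fold of 1.77 (SE 0.20, adjusted p = 1.13e-07). TGA 5FR_1 had 72.9, 77.5 and 74.7 CPM in cells and 282, 239 and 231 CPM in EVs, a log2 fold of 1.74 (SE 0.21). CGA 5FR_1 rose from 7.56 to 15.8 CPM in cells to 45.6 to 81.4 CPM in EVs, a log2 fold of 2.27 (SE 0.38, adjusted p = 3.11e-05). None of the 4 overlapped between cells and EVs.

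AGA 3FR_2 went the other way. It had the highest CPM of the serine fragments in cells, with 666, 667 and 841 CPM in resting cells and 193, 201 and 181 CPM in resting EVs. The groups were far apart, and the log2 fold was −1.92 (SE 0.22, adjusted p = 7.38e-08), or 3.78-fold lower. CGA 3FR_2 had 54.9, 45 and 61.4 CPM in cells and 37.3, 30.9 and 30.3 CPM in EVs, a log2 fold of −0.71 (SE 0.25, adjusted p = 0.0356). That call was lost without resting cells replicate 1 or 3 or resting EVs replicate 2 or 3 (log2 fold −0.71 to −0.62, adjusted p = 0.0838 to 0.121), and with library totals in place of TMM (−0.51). The 3FR_1 and 3_half_up fragments had log2 folds from 0.91 (SE 0.26) for GCT 3FR_1_down to 1.79 (SE 0.37) for AGA 3_half_up. Of these, GCT 3FR_1_down lost its call without resting cells replicate 3 (0.79, adjusted p = 0.0512), CGA 3FR_1_up without resting EVs replicate 3 (1.14, adjusted p = 0.0858), and CGA 3FR_1_down without resting cells replicate 2 (0.72, adjusted p = 0.104) or resting EVs replicate 3 (0.63, adjusted p = 0.145).

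In stimulated cultures 12 fragments were higher in EVs and 2 lower, where 27.3% of all rows were higher and 23.6% lower. AGA 5FR_1 had 23.2, 21.2 and 19.2 CPM in stimulated cells and 113, 133 and 157 CPM in stimulated EVs, a log2 fold of 2.66 (SE 0.22, adjusted p = 1.77e-10), or 6.31-fold. GCT 5FR_1 had a log2 fold of 2.16 (SE 0.24), TGA 5FR_1 of 2.75 (SE 0.23) and CGA 5FR_1 of 2.01 (SE 0.37), and no cell and EV libraries overlapped.

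AGA 3FR_2 had 280.1, 308 and 329 CPM in stimulated cells and 16.4, 22.1 and 22.7 CPM in stimulated EVs, a log2 fold of −3.91 (SE 0.24, adjusted p = 1.43e-12), or 15-fold lower. CGA 3FR_2 had a log2 fold of −1.28 (SE 0.26, adjusted p = 0.000165). AGA 3_half_up was the fragment not called (0.48, SE 0.33, 95% interval −0.15 to 1.12). The calls of 2 fragments were weak: TGA 3_half_up (0.65) fell to 0.38 without stimulated EVs replicate 3 (adjusted p = 0.228), and its call was also lost without stimulated cells replicate 2 or 3 or any GW4869 EV library (0.46 to 0.64), and CGA 3FR_1_up (0.95) lost its call without 7 of the 24 libraries (adjusted p = 0.0776 to 0.141).

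In DMSO cultures 5 fragments were higher in EVs and 2 lower, where 38.4% of all rows were higher and 27.4% lower. The 5 were the 4 5FR_1 fragments, from 2.10 (SE 0.39) for CGA to 2.89 (SE 0.22) for AGA, and TGA 3FR_1_up (0.73, SE 0.25), whose call was lost without any of 14 libraries (adjusted p up to 0.341) and whose fold was 0.30 without DMSO EVs replicate 2 and 0.40 without DMSO cells replicate 2. Both 3FR_2 fragments were again lower, at −3.80 (SE 0.24) for AGA and −2.13 (SE 0.28) for CGA. With library totals 12 were higher and 2 lower.

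In GW4869 cultures 2 fragments were higher in EVs and 2 lower, where 39.8% of all rows were higher and 30.5% lower. AGA 5FR_1 (1.56, SE 0.21, adjusted p = 6.28e-07) and TGA 5FR_1 (1.27, SE 0.23) were higher. GCT 5FR_1 had 141, 140.2 and 178 CPM in cells and 200, 209 and 164 CPM in EVs, so the libraries overlapped, and the log2 fold was 0.32 (SE 0.23, 95% interval −0.13 to 0.78). CGA 5FR_1 was not called either (0.17, SE 0.40). The 3FR_1 and 3_half_up fragments lay between −0.35 and 0.25, and those of them below 0 turned positive with library totals (0.65 for AGA 3FR_1_down). With library totals 10 fragments were higher and 2 lower, since that scaling moved the median of all rows up by 0.74 on the log2 scale. AGA 3FR_2 had 222, 314 and 230 CPM in cells and 10.8, 17.1 and 8.93 CPM in EVs, a log2 fold of −4.36 (SE 0.25, adjusted p = 2.59e-13). CGA 3FR_2 had −2.02 (SE 0.30).

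**Figure D2:**
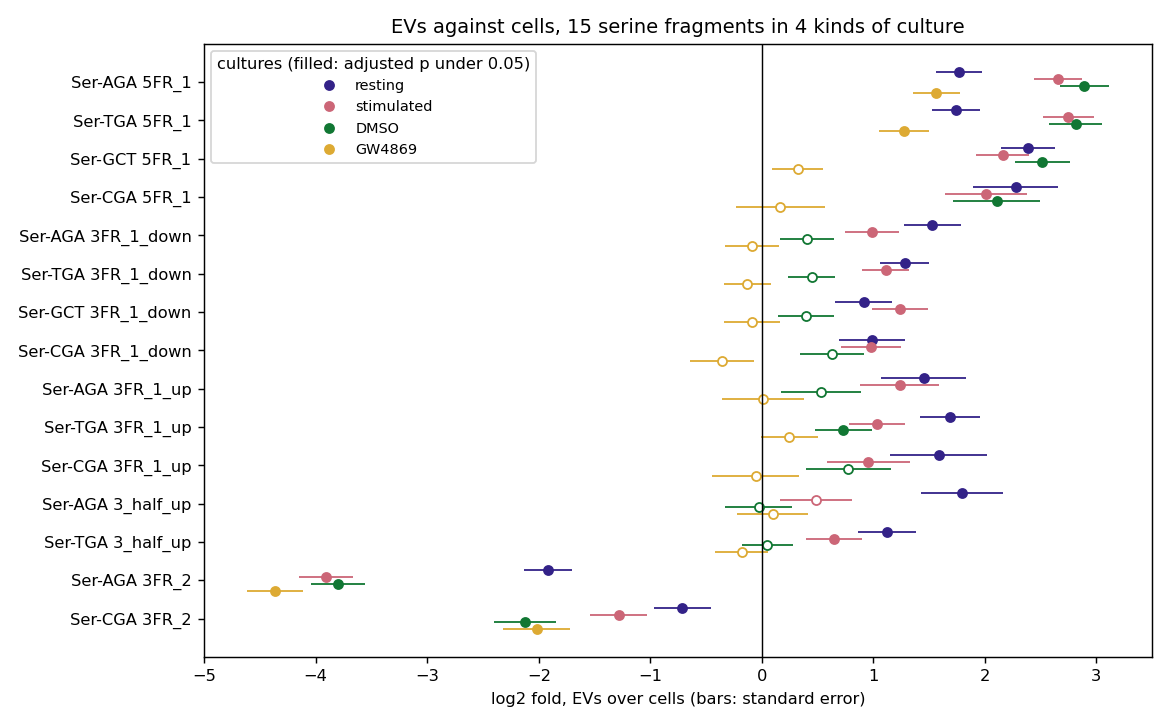
Log2 fold of EVs over cells (x axis, bars are standard errors) for the 15 serine fragments (rows) in resting, stimulated, DMSO and GW4869 cultures (colours); filled points have an adjusted p under 0.05. The 4 5FR_1 fragments lie to the right of 0 and the 2 3FR_2 fragments to the left in each kind of culture, with GW4869 values of 0.32 and 0.17 for GCT and CGA 5FR_1, which were 1.06 and 0.90 with library totals.

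Single genes were read as well. They hold the same counts as the sums, so their split is no separate support. In resting cultures all 30 features were called, 28 higher and 2 lower (34.3% of all 4408 features were called in either direction). There were 25 higher and 2 lower in stimulated cultures (53.5% of all features called), 18 and 2 with DMSO (65.4%), and 8 and 2 with GW4869 (68.2%), or 23 and 2 with library totals. With DMSO the 20 of 30 features called were near the share of all features, and with GW4869 the 10 of 30 were below it. The 2 lower ones were AGA-2-3 3FR_2 and CGA-2-1 3FR_2 each time. The steepest in resting cultures were GCT-6-1, GCT-2-1 and GCT-1-1 5FR_1, at 2.71, 2.58 and 2.46. In stimulated cultures they were TGA-2-1, AGA-2-1 and TGA-1-1 5FR_1 (2.84, 2.79 and 2.59), with DMSO TGA-1-1, AGA-2-2 and AGA-1-1 (3.34, 3.34 and 3.07), and with GW4869 AGA-2-4, AGA-1-1 and AGA-2-2 (1.78, 1.71 and 1.59).

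Beside the same kinds from other tRNAs, serine 5FR_1 had a median log2 fold of 2.11 in resting cultures with 16 of 16 features higher. Other amino acids had 0.82 with 81 of 156 higher and 9 lower, and leucine 0.16 with 8 of 23 higher. Serine 3FR_2 had −1.26 with 2 of 2 lower, and other amino acids 2.97 with 47 of 56 higher and 6 lower. In stimulated cultures other 5FR_1 features were at 1.99 with 135 of 156 higher, beside 2.36 for serine. Other 3FR_2 features were at 0.95 with 31 of 56 higher and 8 lower, beside −2.69 for serine. Summed by anticodon, the picture of 3FR_2 was less one-sided: in resting cultures 11 of 20 other fragments were higher and 4 lower (median 2.16), and in stimulated cultures 5 were higher and 8 lower (median 0.33). One of the 2 leucine 3FR_2 fragments was at −3.92 in stimulated cultures, beside −3.91 for Ser-AGA 3FR_2. Of summed 5FR_1 fragments 17 of 27 others were higher and 2 lower in resting cultures (median 1.03), and 25 higher and 0 lower in stimulated ones (median 2.02), beside 4 of 4 higher for serine (2.02 and 2.41). All 25 3FR_1_down and all 8 3FR_1_up features of nuclear tRNAs were from serine or leucine. In stimulated cultures the 4 serine 3FR_1_up features were at a median of 0.94 with 3 higher, and the 4 leucine ones at −1.74 with 3 lower. The selenocysteine tRNA, with 2 features, was at 1.47 and 2.07 in resting and stimulated cultures. The difference between serine and other lists was not tested.

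**Figure D3:**
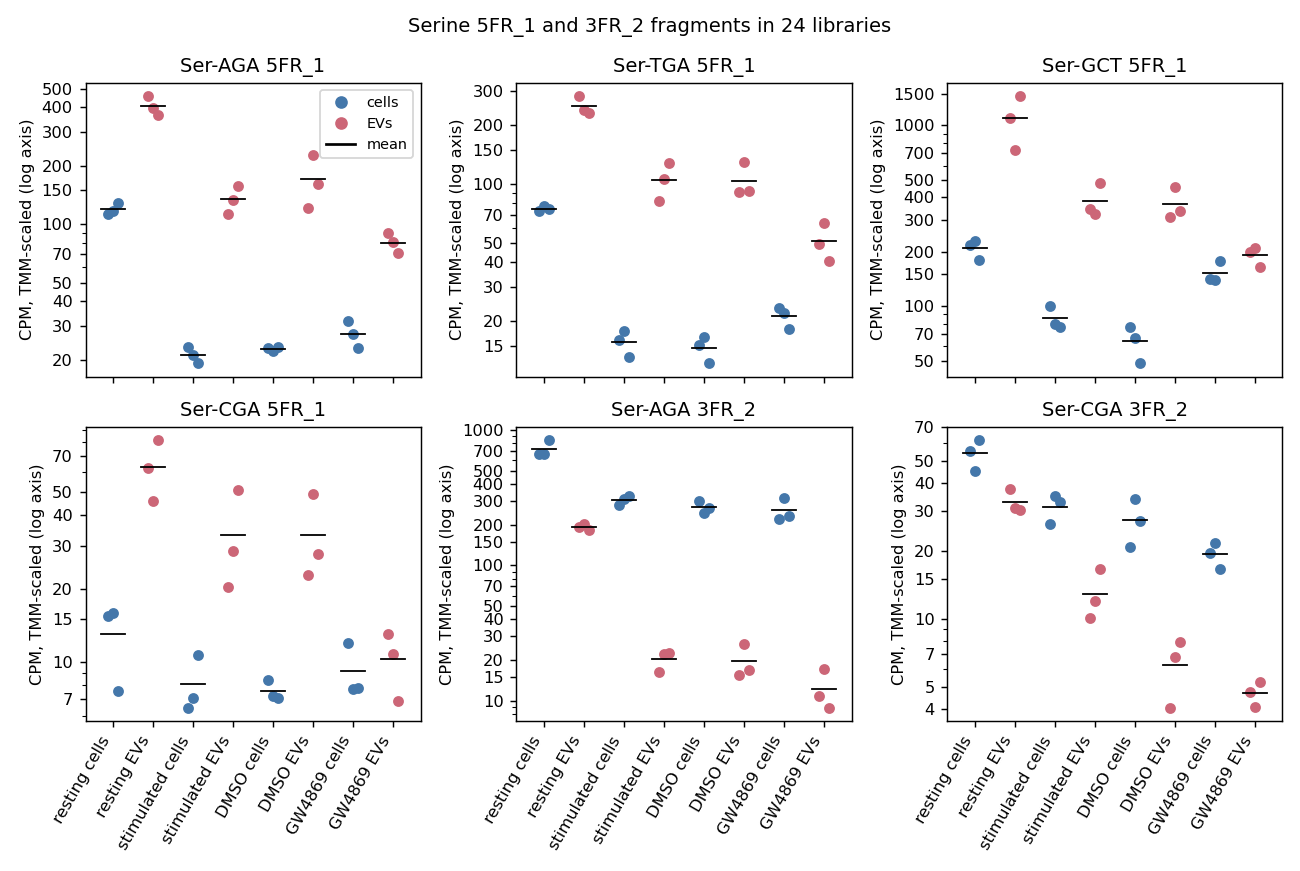
Level (TMM-scaled CPM, log axis) of the 4 serine 5FR_1 fragments and the 2 3FR_2 fragments in each library, with the group mean as a line. AGA 3FR_2 spans 8.93 CPM (GW4869 EVs) to 841 CPM (resting cells), and GCT 5FR_1 spans 48.3 CPM (DMSO cells) to 1457 CPM (resting EVs).

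The next comparison asked how stimulated cultures differed from resting ones. In cells, 6 fragments were lower and 0 higher, where 19.2% of all rows were lower. AGA 5FR_1 had 113, 117.5 and 128.5 CPM in resting and 23.2, 21.2 and 19.2 CPM in stimulated cells, a log2 fold of −2.49 (SE 0.22, adjusted p = 8.61e-10), or 5.63-fold lower. TGA 5FR_1 was lower by a log2 fold of −2.26 (SE 0.23), GCT 5FR_1 by −1.29 (SE 0.24), AGA 3FR_2 by −1.25 (SE 0.21), CGA 3FR_2 by −0.78 (SE 0.25) and TGA 3_half_up by −0.72 (SE 0.28), of which CGA 3FR_2 and TGA 3_half_up turned to 0.18 and 0.25 with library totals. TGA 3_half_up lost its call without resting cells replicate 1, stimulated cells replicate 3 or GW4869 EVs replicate 2 (−0.71 to −0.63, adjusted p = 0.0536 to 0.108). No libraries of the 6 overlapped. The 7 3FR_1 fragments lay between −0.42 and 0.28 and were not called, and with library totals they lay between 0.54 and 1.23.

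In EVs 11 fragments were lower and 0 higher, where 24.6% of all rows were lower. AGA 3FR_2 fell furthest, from 193, 201 and 181 CPM in resting EVs to 16.4, 22.1 and 22.7 CPM in stimulated EVs, a log2 fold of −3.24 (SE 0.24, adjusted p = 2.95e-11), or 9.43-fold lower. GCT 5FR_1 fell from 1097, 729.6 and 1457 CPM to 345, 326 and 479 CPM, a log2 fold of −1.52 (SE 0.23, adjusted p = 4.93e-06). AGA 5FR_1 fell by 1.60 on the log2 scale (SE 0.20), TGA 5FR_1 by 1.25 (SE 0.21), CGA 3FR_2 by 1.35 (SE 0.26), AGA 3_half_up by 1.22 (SE 0.31) and TGA 3_half_up by 1.20 (SE 0.24).

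Of the 11, 4 were weak, and with library totals all 4 had a log2 fold above 0 (0.15 for CGA 5FR_1 to 0.63 for TGA 3FR_1_down). The count of 11 was 7 without resting EVs replicate 3 or stimulated EVs replicate 2. The calls of AGA 3FR_1_down (−0.61), CGA 5FR_1 (−0.95) and TGA 3FR_1_up (−0.67) were each lost without any of 3 libraries, resting EVs replicate 3 among them (−0.47, −0.80 and −0.57 without it), and that of TGA 3FR_1_down (−0.49) without any of 6 libraries (adjusted p up to 0.133). Stimulated EVs replicates 1 and 2 were the others for AGA 3FR_1_down and CGA 5FR_1, and replicates 2 and 3 for TGA 3FR_1_up. CGA 5FR_1 was also the called fragment whose resting and stimulated EV libraries overlapped.

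The direction of several of these depended on the scaling. TMM factors were 0.53 to 0.65 in resting libraries and 0.94 to 1.45 in stimulated ones, and the summed level of 5 blood-cell miRNAs was 240200 to 269900 CPM in resting cells and 78980 to 105400 CPM in stimulated cells; their part in the result was not tested. With library totals the median of all rows moved up by 0.96 in cells and 1.11 in EVs. The calls then were 5 higher and 2 lower in cells, and 3 higher and 2 lower in EVs. The fragments lower under both scalings were AGA 5FR_1 (−1.53 with totals) and TGA 5FR_1 (−1.30) in cells, and AGA 3FR_2 (−2.13) and AGA 5FR_1 (−0.50) in EVs. With totals the higher ones in cells were AGA and TGA 3FR_1_down, TGA and CGA 3FR_1_up and AGA 3_half_up (0.66 to 1.23), and in EVs CGA, GCT and TGA 3FR_1_down (0.63 to 1.02).

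**Figure D4:**
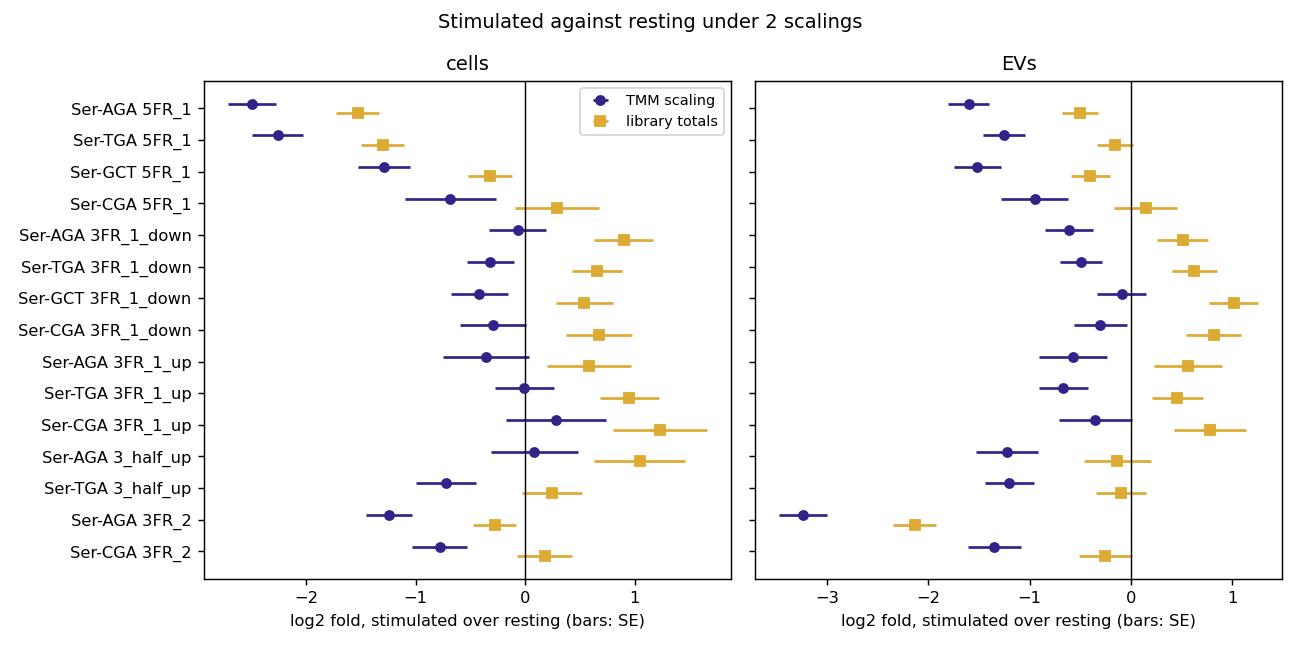
Log2 fold of stimulated over resting (x axis, bars are standard errors) for the 15 serine fragments in cells (left) and EVs (right), with TMM scaling (circles) and with library totals (squares). The points move right with library totals: AGA 3FR_1_down in cells is at −0.07 with TMM and at 0.90 with totals.

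At the level of single genes 17 features were lower in stimulated cells and 24 in stimulated EVs, and 0 were higher in either (46.1% and 54.1% of all features were called); with library totals 5 were higher and 8 lower in cells, and 6 higher and 5 lower in EVs. In cells the steepest were AGA-2-5, AGA-1-1 and TGA-2-1 5FR_1, at −2.57, −2.36 and −2.36. In EVs they were AGA-2-3 3FR_2, AGA-2-2 5FR_1 and AGA-1-1 5FR_1, at −3.24, −1.74 and −1.69. Other amino acids' 5FR_1 features were lower in stimulated cells in 130 of 156 cases (median −1.43) beside 15 of 16 for serine (−1.62). In EVs 49 of 156 were lower and 15 higher (median −0.43), beside 16 of 16 lower for serine (−1.50). Summed by anticodon, 12 of 27 were lower and 2 higher in EVs (median −0.53), beside 4 of 4 lower for serine (−1.38). The fall of 3FR_2 in EVs was not limited to serine: all 56 features of other amino acids were lower (median −1.95), and so were both leucine ones (−3.37).

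The EV to cell ratio was then compared between stimulated and resting cultures, as an interaction in the same fit. Of the 15 fragments 2 had a higher ratio and 2 a lower one, where 14% of all rows were higher and 19.1% lower. AGA 3FR_2 had the clearest difference, −1.99 on the log2 scale (SE 0.31, adjusted p = 1.73e-05): from −1.92 in resting to −3.91 in stimulated cultures. AGA 5FR_1 was higher by 0.89 (SE 0.29, adjusted p = 0.0198) and TGA 5FR_1 by 1.01 (SE 0.30, adjusted p = 0.013). AGA 3_half_up was lower by −1.31 (SE 0.50, adjusted p = 0.0464). The ratio of GCT 5FR_1 (−0.23, SE 0.33, 95% interval −0.87 to 0.41) and of CGA 5FR_1 (−0.26, SE 0.54) was not called.

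The AGA 5FR_1 call was lost without stimulated cells replicate 3 (0.82), stimulated EVs replicate 3 (0.77) or GW4869 EVs replicate 2 (0.78), and with DESeq2's factors in edgeR (RLE; 0.78, adjusted p = 0.0686). The count of 4 was 2 without stimulated cells replicate 3. The call of AGA 3_half_up was lost without any of 12 libraries (adjusted p = 0.0502 to 0.116). With library totals 2 were higher and 1 lower, and with RLE factors 1 higher and 2 lower. Of single genes 0 were higher and 2 lower, AGA-2-3 3FR_2 (−2.15) and AGA-1-1 3_half_up (−1.46), where 35.8% of features were called; with library totals 6 were higher and 1 lower, and the 2 were 1 without resting cells replicate 3 or resting EVs replicate 2 and 4 without DMSO EVs replicate 2. None of the 16 serine 5FR_1 features was called, beside 64 of 156 higher for other amino acids. Summed by anticodon, 2 of 4 serine 5FR_1 fragments and 18 of 27 others had a higher ratio, and with a mean of at least 50 counts 4 serine single genes did. The ratio was lower for 47 of 56 3FR_2 features of other amino acids (median −1.81), beside 1 of 2 for serine.

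Stimulated and DMSO cultures differed in the labelled vehicle, and no antibody dose is given for the DMSO cultures in the labels. In cells 2 fragments were higher with DMSO, where 11.1% of all rows were higher. TGA 3_half_up had 11.3, 8.02 and 9.59 CPM in stimulated and 28.6, 30.1 and 33.5 CPM in DMSO cells, a log2 fold of 1.66 (SE 0.25, adjusted p = 2.48e-05), or 3.16-fold. AGA 3_half_up had 7.17, 4.72 and 6.4 CPM in stimulated and 14.6, 12.3 and 18.1 CPM in DMSO cells, a log2 fold of 1.27 (SE 0.33, adjusted p = 0.0049). The libraries of neither overlapped. With library totals both stayed higher and GCT 5FR_1 was lower (−0.61), so that 2 were higher and 1 lower. The count of 2 was 4 without any 1 of the resting libraries, stimulated cells replicate 2 or DMSO EVs replicate 2.

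In EVs 1 fragment was higher and 1 lower with DMSO, where 13.3% of all rows were higher and 11% lower. TGA 3_half_up had 12.9, 12.4 and 20.8 CPM in stimulated and 33.9, 29.7 and 31.7 CPM in DMSO EVs, a log2 fold of 1.06 (SE 0.23, adjusted p = 0.00203). CGA 3FR_2 had 10.1, 12.1 and 16.6 CPM in stimulated and 4.07, 6.78 and 7.92 CPM in DMSO EVs, a log2 fold of −1.04 (SE 0.28, adjusted p = 0.00872), and lost its call without DMSO EVs replicate 1 (−0.79, adjusted p = 0.0689). No 5FR_1 fragment was called in cells or EVs. The 3_half_up kind is rare: it has 6 features among nuclear tRNAs, of which 3 were serine.

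Single genes showed 3 features higher and 1 lower in cells (29% of all features called) and 3 higher and 1 lower in EVs (23.5%). The 3 were the 3_half_up features of TGA-2-1, TGA-2-2 and AGA-1-1, at 1.70, 1.55 and 1.24 in cells and 0.96, 1.23 and 0.78 in EVs. The 4 in EVs were 2 without stimulated EVs replicate 1. The lower ones were TGA-1-1 5FR_1 in cells (−0.93, adjusted p = 0.0421; 19 counts in all in DMSO cells) and CGA-2-1 3FR_2 in EVs (−1.01). The split in cells was 3 higher and 0 lower with RLE factors, and 3 higher and 3 lower with library totals. Of the leucine 3_half_up features, 2 of 2 were also higher in cells and in EVs, at medians of 1.46 and 1.70.

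**Figure D5:**
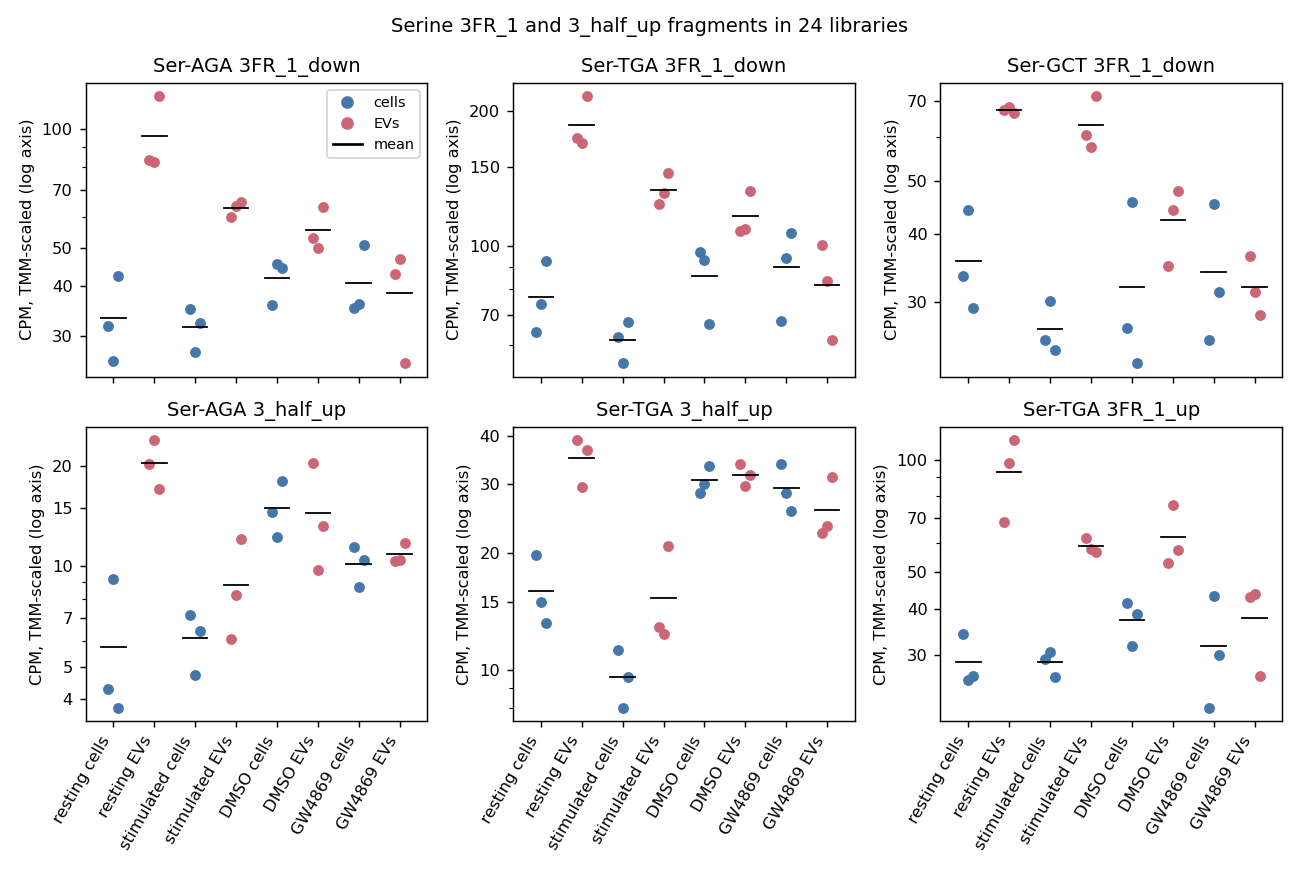
Level (TMM-scaled CPM, log axis) of 6 serine fragments of the 3′ side in each library, with the group mean as a line. TGA 3_half_up lies between 8.02 and 20.8 CPM in the 6 stimulated libraries and between 28.6 and 33.9 CPM in the 6 DMSO libraries.

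GW4869 was compared with its vehicle. In EVs 5 fragments were lower and 0 higher, where 9.64% of all rows were lower. AGA 5FR_1 had 121, 228 and 161 CPM in DMSO and 89.7, 80.8 and 70.6 CPM in GW4869 EVs, a log2 fold of −1.08 (SE 0.20, adjusted p = 0.00107), or 2.11-fold lower. CGA 5FR_1 had 22.8, 48.8 and 27.9 CPM in DMSO and 13, 10.8 and 6.9 CPM in GW4869 EVs, a log2 fold of −1.68 (SE 0.36, adjusted p = 0.00301).

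GCT 5FR_1 had 311, 454 and 336 CPM in DMSO and 200, 209 and 164 CPM in GW4869 EVs, a log2 fold of −0.94 (SE 0.23, adjusted p = 0.00871), and lost its call without DMSO EVs replicate 2 (−0.74, adjusted p = 0.0595). TGA 5FR_1 had a log2 fold of −1.02 (SE 0.21, adjusted p = 0.00233). The libraries of all 4 were apart, and all 4 stayed lower with library totals. The fifth, TGA 3FR_1_up (−0.71, adjusted p = 0.0483), lost its call without any of 18 libraries, and the 5 were 3 without DMSO EVs replicate 2. The 3FR_2 fragments were not called (−0.64, SE 0.25, for AGA and −0.40, SE 0.32, for CGA).

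In cells 1 fragment was higher with GW4869, where 3.24% of all rows were higher. GCT 5FR_1 had 76.7, 66.9 and 48.3 CPM in DMSO and 141, 140.2 and 178 CPM in GW4869 cells, a log2 fold of 1.25 (SE 0.24, adjusted p = 0.00538), or 2.39-fold. Its call was lost without DMSO cells replicate 2 (1.18, adjusted p = 0.0832) or replicate 3 (0.97, adjusted p = 0.12). The other 5FR_1 fragments were not called, at 0.25 (SE 0.23) for AGA, 0.52 (SE 0.25) for TGA and 0.26 (SE 0.43) for CGA. In stimulated cells without vehicle GCT 5FR_1 had 100.3, 79.7 and 77.1 CPM, between the DMSO and the GW4869 cells.

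The EV to cell ratio of all 4 5FR_1 fragments was lower with GW4869 than with DMSO, where 6.35% of all rows were lower, and that of no serine fragment was higher. The difference was −2.19 (SE 0.33, adjusted p = 0.000305) for GCT, −1.94 (SE 0.56, adjusted p = 0.0327) for CGA, −1.54 (SE 0.32, adjusted p = 0.00453) for TGA and −1.33 (SE 0.30, adjusted p = 0.00801) for AGA. The call of CGA was lost without any of 8 libraries (adjusted p = 0.0503 to 0.127) and with library totals (−1.70). The 11 fragments of the 3′ side were not called, from −0.98 (SE 0.41) for CGA 3FR_1_down to 0.12 (SE 0.44) for AGA 3_half_up. Since the comparisons with DMSO share its libraries, they are not independent of each other.

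Of single genes 14 were lower in GW4869 EVs (17.6% of all features were called), with CGA-2-1, AGA-2-5 and TGA-1-1 5FR_1 at −1.68, −1.34 and −1.18. That count was 4 without GW4869 EVs replicate 3, 5 without DMSO EVs replicate 2 and 6 with library totals. In cells 5 were higher (2.99% of features called): the 5FR_1 features of GCT-6-1, GCT-4-1, GCT-4-2, GCT-3-1 and TGA-1-1, at 1.58, 1.50, 1.42, 1.38 and 1.29, the last 2 named after their values were seen. That count was 0 without DMSO cells replicate 2 or 3, 3 without DMSO cells replicate 1 and 1 without GW4869 cells replicate 3. The ratio was lower for 10 (7.58% of features called), with GCT-6-1, GCT-4-1 and GCT-3-1 at −2.69, −2.65 and −2.52, and for 6 without GW4869 EVs replicate 3. Other amino acids' 5FR_1 features had a lower ratio in 25 of 156 cases (median −0.88), beside 10 of 16 for serine (−1.74). Summed by anticodon, 9 of 27 others (median −0.87) and 3 of 5 leucine fragments (−1.49) had a lower ratio, beside 4 of 4 for serine (−1.74). In GW4869 EVs the TMM factors were 1.615 to 1.787, above those of every other group, and the library totals were 1290918 to 1663560 counts; their part in the result was not tested.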

How the data were processed

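Small RNA sequencing counts of 24 libraries were used, in 8 groups of 3 taken from the sample labels. The values are counts of reads per small RNA feature, as deposited by the authors. Bowtie and the mm10 (GRCm38) build are named per the submitters' processing notes. Trimming, mismatches, the treatment of reads that match several genes and the definition of each fragment kind are not given in the sources used here. Each file had 4441 lines, of which 33 repeated a feature and were dropped, leaving 4408.

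Counts were fitted with edgeR 4.0.16 in R 4.3.3: TMM factors, filterByExpr with a minimum count of 10 (which removed 0 features), 1 mean per group over all 24 libraries, the quasi-likelihood test, and Benjamini-Hochberg adjustment over all features. A call is an adjusted p under 0.05, and 12 comparisons were made. The fit was run on single features and again after nuclear tRNA features of 1 anticodon and kind were summed. Standard errors are the log2 fold divided by the square root of the F statistic. Overlap of libraries was read from CPM. Scripts were tested on simulated counts.

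Every serine fragment was described. Of single genes the text names the one with the highest mean CPM of each anticodon and kind with several genes, and in each comparison up to 3 called features with the highest and the lowest folds. Leucine, selenocysteine and other tRNA features of the same kind were described by counts and medians. The members and lists were chosen with earlier results of these data known. Alternatives were RLE factors, library totals, no filter, a mean of at least 50 counts, DESeq2 1.42.0, a replicate block, and leaving out each library. Library totals were 1290918 to 3231626 counts, so a fragment at 10 CPM rests on few reads.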

Additional observations from a re-analysis of the deposited data

Results flagged for a closer look

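The EV to cell ratio differed between culture conditions in 8 pairs of serine fragment and comparison (interaction term, quasi-likelihood test of edgeR, Benjamini-Hochberg adjusted). Between stimulated and resting cultures 2 of 15 were higher and 2 lower, not above the shares of all rows, 14% and 19.1%. Between GW4869 and DMSO cultures 4 of 15 were lower, where 6.35% of all rows were. Calls were lost without any of 12 libraries for AGA 3_half_up, any of 8 for CGA 5FR_1, and any of 3 for AGA 5FR_1 between stimulated and resting cultures. AGA 5FR_1 and TGA 5FR_1, which may share reads, differed in both comparisons. Between stimulated and resting cultures the difference was −1.99 (adjusted p = 1.73e-05) for AGA 3FR_2, −1.31 (adjusted p = 0.0464) for AGA 3_half_up, 0.89 (adjusted p = 0.0198) for AGA 5FR_1 and 1.01 (adjusted p = 0.013) for TGA 5FR_1. Between GW4869 and DMSO cultures it was −1.33 (adjusted p = 0.00801) for AGA 5FR_1, −1.94 (adjusted p = 0.0327) for CGA 5FR_1, −2.19 (adjusted p = 0.000305) for GCT 5FR_1 and −1.54 (adjusted p = 0.00453) for TGA 5FR_1.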

How the results depend on the processing

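Depth limits the smaller fragments, since 1005 to 5738 serine counts per library are shared by 15 fragments. Of 75 calls over fragments and comparisons, 19 were lost without at least 1 library. Leaving out each library in turn gave these counts of called fragments: for EVs against cells 12 to 15 resting, 12 to 14 stimulated, 6 to 8 with DMSO and 4 with GW4869; for stimulated against resting 5 to 6 in cells and 7 to 12 in EVs; for DMSO against stimulated 2 to 4 and 1 to 3; for GW4869 against DMSO 0 to 1 and 3 to 7; and for the EV to cell ratio 2 to 4 and 3 to 4. For single genes the counts were 26 to 30, 24 to 28, 18 to 21 and 10 to 11, then 15 to 17 and 20 to 25, 3 to 4 and 2 to 4, 0 to 6 and 4 to 19, and 1 to 4 and 6 to 13, in the same order. With library totals the called fragments were 14 (DMSO) and 12 (GW4869) for EVs against cells and 5 for stimulated against resting EVs, and the called single genes were 25 for GW4869 EVs against cells, 11 for stimulated against resting EVs, 6 for GW4869 against DMSO EVs and 7 for the ratio of stimulated and resting cultures. With a mean of at least 50 counts, fewer features were tested: single genes gave 1 call for DMSO against stimulated cells, 0 for the EVs and 5 for the ratio, and fragments 1 for DMSO against stimulated EVs and 3 for GW4869 against DMSO EVs. Where the text gives 0 fragments or single genes in a direction, edgeR had 0 at an unadjusted p under 0.05 and DESeq2 called 0, except that 4 single genes had a higher ratio in stimulated cultures at an unadjusted p under 0.05. RLE factors gave 3 single genes for GW4869 against DMSO cells. The cause of these was not tested.

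With library totals 32 log2 folds changed sign, 15 of them called under TMM or under totals: in GW4869 EVs against cells AGA 3FR_1_down 0.65, GCT 3FR_1_down 0.65, TGA 3FR_1_down 0.61 and TGA 3_half_up 0.55; in stimulated against resting cells AGA 3FR_1_down 0.90, CGA 3FR_2 0.18, TGA 3FR_1_down 0.66, TGA 3FR_1_up 0.95 and TGA 3_half_up 0.25; and in stimulated against resting EVs AGA 3FR_1_down 0.51, CGA 3FR_1_down 0.82, CGA 5FR_1 0.15, GCT 3FR_1_down 1.02, TGA 3FR_1_down 0.63 and TGA 3FR_1_up 0.46. The other 17 were called under neither, among them CGA 3FR_1_down and CGA 3FR_1_up in GW4869 EVs against cells (0.39 and 0.69) and CGA 3FR_1_down in stimulated against resting cells (0.67). RLE factors and DESeq2 turned 12 each and the replicate block 1, none of them called. As a share of nuclear tRNA counts, the log2 ratio of serine counts in stimulated EVs to cells was 0.58, and as a share of all counts 1.07 (0.99 to 1.14 leaving out each library; 1.01 to 1.15 resting, 1.12 to 1.25 DMSO, 0.32 to 0.56 GW4869). In the other cultures the ratio by nuclear tRNA counts was 1.25 resting, 1.09 with DMSO and 0.60 with GW4869.

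With the replicate number as a block, 10 fragments were called in stimulated against resting EVs, 4 in GW4869 against DMSO EVs and 3 for the ratio of stimulated and resting cultures, and 3 single genes in DMSO against stimulated EVs. Same-numbered libraries had correlations of −0.373 to 0.381, and 16 of 84 pairs were over 0.1, so the numbers were not taken to pair libraries.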

Other observations

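A few serine tRNA genes were also listed outside the tRNA features, under the names n-TStga1, n-TSaga9 and Gm44456 (the name of the n-TStga2 gene). The summed count of n-TStga1 and Gm44456 was 1.03 to 1.18 times that of the TGA-2 features over the 24 libraries, with a median of 1.09. Between resting EVs and cells n-TStga1 had a log2 fold of 1.54 (SE 0.18), Gm44456 of 1.65 (SE 0.20) and n-TSaga9 of 1.67 (SE 0.25). With GW4869 the folds were 0.12 (SE 0.17), 0.03 (SE 0.19) and 0.78 (SE 0.26) in the same order, and only n-TSaga9 was called. These entries may hold the same reads as the tRNA features, so their folds are no separate support.

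The TGA-1-1 5FR_1 count was 1.12 times the mean of the TGA-2 features in resting cells, 1.06 in resting EVs, 1.50 in stimulated EVs, 1.22 in DMSO EVs, 1.54 in GW4869 cells and 1.00 in GW4869 EVs. No test of this ratio was made.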
